A study of Mus musculus with 20 samples.

Results

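Sites carrying H3K4me1, H3K27ac or both were mapped in the nuclei labelled inhibitory neurons of the adult mouse brain, from 2 libraries of each mark, 4 of the 20 libraries of the series. Peaks of the 4 libraries that overlapped by at least 1 base were merged into 285324 regions. A region was taken as having both marks when all 4 libraries had a peak in it. It was taken as H3K4me1 alone when both H3K4me1 libraries and neither H3K27ac library had a peak there, and as H3K27ac alone in the reverse case. This gave 44923 sites with both marks (15.7% of the regions), 33587 with H3K4me1 alone (11.8%) and 5371 with H3K27ac alone (1.88%). The other 201443 regions had a peak in some other combination of libraries and were not classified, and 86933 of them rested on replicate 1 of H3K4me1 only.

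The libraries come from CUT&RUN, in which an antibody directs a nuclease to release the DNA around its target for sequencing, using sorted nuclei of whole brains at 8 weeks of age. Every group has the same genotype, Sun1 f/f with Emx1Cre (+), and differs only in the antibody (H3K4me1, H3K27ac, H3K4me3, H3K27me3 or EGR1) and in the labelled cell type, inhibitory or excitatory neuron. Emx1-driven Cre acts in the lineage of the dorsal forebrain, which gives rise to cortical and hippocampal excitatory neurons and to glia. How the nuclei were gated is not stated in the sources used here. The labels also do not tie the replicates to different animals, so a p-value measures only the spread between libraries.

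H3K4me1 is laid down by the MLL3 and MLL4 methyltransferases at enhancers, and is found there whether or not the enhancer is in use. H3K27ac is laid down by CBP and p300 at enhancers and promoters that are in use. A site with H3K4me1 and no H3K27ac is commonly called primed, or poised where Polycomb has added H3K27me3, and a site with both marks active. H3K4me3 marks promoters of CpG islands, and EGR1 is a zinc-finger transcription factor induced by neuronal activity.

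The promoters below show what the 3 classes look like in sequence. Each is the 250 bases before a gene's start, read 5′ to 3′ on the gene's strand from RefSeq GRCm38.p6, the assembly that mm10 is made from. CG pairs are in capitals, except at Ogfod1, where the capitals mark the ETS motif. They were chosen after the values were seen, as the promoter in the strongest site of each class that holds a whole promoter window, the promoter in the strongest such H3K27ac-alone site with an ETS motif, and those of 2 defining genes of inhibitory neurons. Setmar (chr6:108064795-108065044, plus strand) lies in a site with both marks. Pank2 (chr2:131261758-131262007, plus strand) and Ogfod1 (chr8:94036948-94037197, plus strand) lie in H3K27ac-alone sites. Sp5 (chr2:70474673-70474922, plus strand), Gad1 (chr2:70561879-70562128, plus strand) and Gad2 (chr2:22622077-22622326, plus strand) lie in H3K4me1-alone sites.
Setmar promoter: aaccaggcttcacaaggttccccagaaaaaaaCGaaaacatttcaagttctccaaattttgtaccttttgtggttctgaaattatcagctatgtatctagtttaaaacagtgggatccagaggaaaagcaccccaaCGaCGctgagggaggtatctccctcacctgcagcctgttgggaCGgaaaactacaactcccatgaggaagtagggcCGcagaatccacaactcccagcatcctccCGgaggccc
Pank2 promoter: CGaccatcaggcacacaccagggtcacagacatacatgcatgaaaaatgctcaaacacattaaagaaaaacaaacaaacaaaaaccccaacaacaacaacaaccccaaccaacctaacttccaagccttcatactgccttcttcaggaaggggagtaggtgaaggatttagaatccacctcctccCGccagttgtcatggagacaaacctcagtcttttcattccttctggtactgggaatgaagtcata
Ogfod1 promoter: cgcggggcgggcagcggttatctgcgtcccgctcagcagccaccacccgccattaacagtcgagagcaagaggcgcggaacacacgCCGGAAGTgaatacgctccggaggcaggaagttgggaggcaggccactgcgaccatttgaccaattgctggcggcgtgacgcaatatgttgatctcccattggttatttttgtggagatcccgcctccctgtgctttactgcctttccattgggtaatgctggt
Sp5 promoter: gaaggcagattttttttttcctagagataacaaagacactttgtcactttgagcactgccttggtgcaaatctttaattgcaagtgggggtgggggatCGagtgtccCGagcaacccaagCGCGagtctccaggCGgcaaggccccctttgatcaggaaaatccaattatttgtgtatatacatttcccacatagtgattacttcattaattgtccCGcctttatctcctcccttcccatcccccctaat
Gad1 promoter: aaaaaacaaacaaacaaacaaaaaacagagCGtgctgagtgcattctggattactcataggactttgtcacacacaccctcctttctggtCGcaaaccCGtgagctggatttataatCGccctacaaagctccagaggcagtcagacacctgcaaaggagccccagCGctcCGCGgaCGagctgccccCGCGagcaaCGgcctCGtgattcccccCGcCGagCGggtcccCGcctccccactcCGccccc
Gad2 promoter: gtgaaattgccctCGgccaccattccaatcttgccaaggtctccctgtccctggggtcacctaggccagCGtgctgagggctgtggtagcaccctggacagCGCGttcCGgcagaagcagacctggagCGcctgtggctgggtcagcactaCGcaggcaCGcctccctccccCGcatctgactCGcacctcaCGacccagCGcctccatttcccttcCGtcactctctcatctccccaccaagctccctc
Their CpG content varies widely within a class. The Pank2 stretch holds 2 CG pairs and that of Setmar 6, while Ogfod1 has 19, Gad1 17, Gad2 13 and Sp5 6.

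The label of the sorted nuclei was checked against defining genes. Gad1 and Gad2 encode the GABA-synthesizing enzymes, and Slc32a1 encodes the transporter that loads GABA into synaptic vesicles. H3K27ac peaks covered 0.576% and 0% of Gad1 (gene body plus 5 kb on each side) in the 2 libraries, 0.617% and 0.961% of Gad2, and 0% in both of Slc32a1. H3K27me3 covered 24.6% and 27.7% of Gad1, 15.3% and 21.8% of Gad2, and 31.1% and 34.3% of Slc32a1. Of the 36 genes of the inhibitory neuron list, 19 had no H3K27ac peak in either library, against 5922 of all 21631 protein-coding genes (27.4%). Slc17a7 and Slc17a6 encode transporters that load glutamate into vesicles. H3K27ac covered 14.0% and 14.4% of Slc17a7, where H3K27me3 was at 11.7% and 15.8%, and 0% and 1.26% of Slc17a6. The excitatory forebrain list had a median H3K27ac coverage of 4.48% and 4.36%, near that of all genes, and of H3K27me3 21.8% and 18.8%, against 4.95% and 2.84%. Among genes known from cerebellar granule cells, H3K27ac covered 14.4% and 9.61% of Gabra6, a GABA receptor subunit gene. It covered 11% and 8.75% of Zic1, a zinc-finger gene, and H3K27me3 was at 0% over both genes in each library. The 28 genes of the cerebellar list had a median H3K27ac coverage of 8.18% and 7.19%, the 36 inhibitory genes 0% and 0%, and all genes 4.33% and 5.04%. Of the cerebellar list 5 were at 0% in both H3K27ac libraries, and its median H3K27me3 coverage was 4.58% and 7.65%, not below that of all genes in both libraries. Atoh1, of granule cell precursors, went the other way, with H3K27ac at 0% and 3.56% and H3K27me3 at 47.1% and 56.1%. The list also holds genes of other cerebellar neurons, so its medians do not stand for granule cells alone. The data thus go against the label, which is kept here only as the name of the libraries. How far the makeup of the sorted nuclei bears on the results was not tested, and in bulk nuclei fewer cells with a mark and less of the mark per cell cannot be told apart.

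The marks differed in how strongly the authors' caller ranked their peaks. H3K4me1 had 209223 and 139982 peaks over 188 and 163 Mb, of which 1.43% and 9.61% had a q-value below 0.05, and H3K27ac had 109536 and 114878 peaks over 63.1 and 68.3 Mb, with 31.8% and 35.1%. The lists reach unadjusted p-values of 0.0993 and 0.0992 for H3K4me1, and of 0.0494 in each library for H3K27ac. There are no read counts, so the depth is unknown and the absence of a peak does not show the absence of a mark. Peaks at sites with both marks were the stronger ones. The median −log10 q of H3K27ac peaks was 1.17 and 1.32 at sites with both marks, 0.940 and 1.13 at H3K27ac-alone sites and 0.407 and 0.522 at unclassified regions. The median fold enrichment of H3K4me1 peaks was 2.09 and 2.23 at sites with both marks and 1.93 and 1.96 where it was alone. These are the authors' values per peak, given as a description. The counts of single-mark sites depend on every library. Without H3K4me1 replicate 1 or 2 there were 66283 and 129571 H3K4me1-alone sites, and without H3K27ac replicate 1 or 2 there were 31497 and 31290 H3K27ac-alone sites, because a peak in 1 library of that mark then sufficed. Without H3K4me1 replicate 1 or 2 the H3K27ac-alone sites numbered 8811 and 8398.

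Sites with both marks were the widest, with a median of 2240 bases against 1223 for H3K4me1 alone and 755 for H3K27ac alone. In 79.6% of the sites with both marks at least 1 base was covered in all 4 libraries. Within these sites, 68.8% of the bases that both H3K27ac libraries covered were also covered in both H3K4me1 libraries, and 30.2% in the reverse sense. By length, H3K4me1 was the wider of the marks at these sites.

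H3K27ac-alone sites lay at gene ends more often than those of the other classes. Of the H3K27ac-alone sites 52.0% lay within 2 kb of an end of a protein-coding gene (95% exact binomial interval 50.7 to 53.4, counting error only), against 22.0% of the sites with both marks (21.7 to 22.4) and 13.3% of the H3K4me1-alone sites (13.0 to 13.7). Over all merged regions this share was 12.4%. H3K4me1-alone sites were intergenic in 31.5%, sites with both marks in 22.0% and H3K27ac-alone sites in 12.2%, against 31.3% of all regions. The median distance to the nearest gene end was 33.3 kb, 22.0 kb and 1.94 kb in the same order, and 28.5 kb over all regions. Gene bodies held 55.2% of the H3K4me1-alone sites, 55.9% of those with both marks and 35.8% of those with H3K27ac alone, against 56.2% of all regions. The share of H3K27ac-alone sites at gene ends rests on both H3K27ac libraries: without replicate 1 it was 21.0% and without replicate 2 it was 20.8%, when a peak in a single H3K27ac library was enough for the class.

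**Figure D1:**
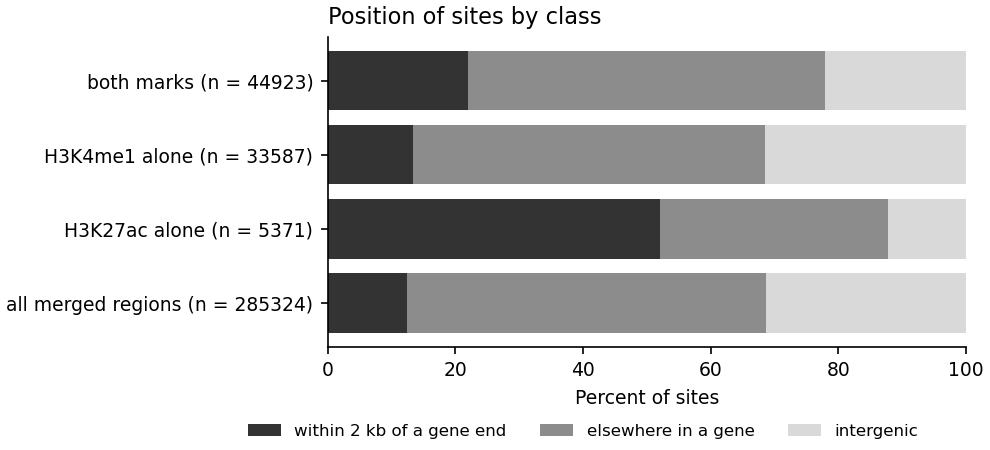
Position of the sites of each class and of all merged regions, as stacked bars of the percent of sites (x axis) within 2 kb of a gene end, elsewhere in a gene and between genes. H3K27ac-alone sites stand apart with 52.0% at gene ends, against 13.3% of H3K4me1-alone sites.

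The gene end in question was mostly the start. Among sites at the ends of genes whose strand is known, 83.4% of the H3K27ac-alone sites touched the start only and 8.20% the far end only. The corresponding values were 64.4% and 22.5% for both marks, 65.3% and 23.1% for H3K4me1 alone, and 56.2% and 33.9% for all regions. A site reached over a start itself in 31.0% of the H3K27ac-alone sites (1664 sites), in 11.8% of those with both marks (5286) and in 2.74% of those with H3K4me1 alone (920), against 3.66% of all regions (10436). Coverage was also read at each distance from 21020 gene starts. H3K27ac covered 39.5% and 44.2% of the starts in its 2 libraries and was highest there. H3K4me1 covered 19.8% and 17.5% of the starts and reached its maximum of 31.4% and 31.0% at 1600 and 1700 bases downstream, with a lower upstream maximum of 21.2% and 18.9%. H3K4me3 covered 56.1% and 57.7% of the starts and EGR1 43.0% and 48.6%.

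**Figure D2:**
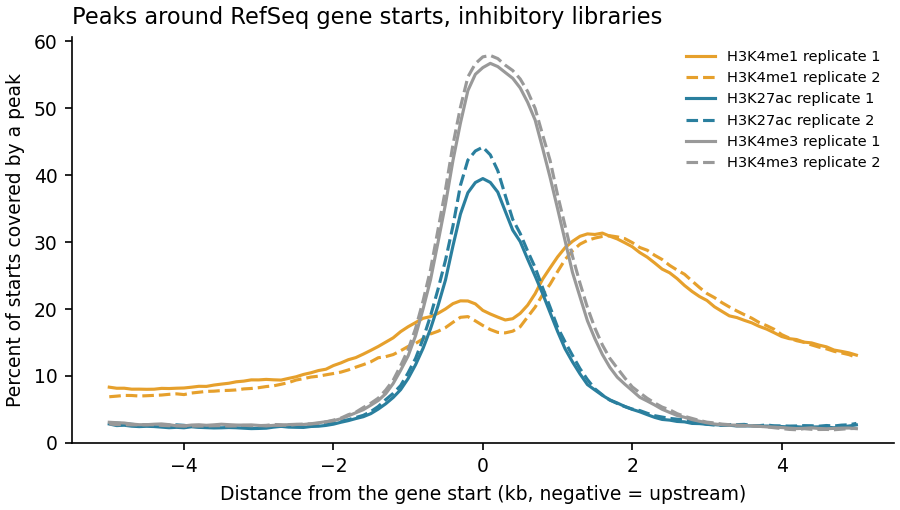
Percent of 21020 gene starts (y axis) with a peak at each distance from the start in kb (x axis, upstream negative), a line per library of H3K4me1, H3K27ac and H3K4me3. H3K27ac is highest at the start, and both H3K4me1 libraries dip there and peak at 1600 and 1700 bases downstream.

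The strongest sites illustrate the classes. The highest-ranked H3K27ac-alone sites, by the smaller of the 2 libraries' strongest −log10 q, all lay over gene ends. They were at Rbm25, a splicing regulator gene (chr12:83631475-83632512, −log10 q of 7.25), at Pank2, a pantothenate kinase gene (chr2:131261608-131263294, 6.73), and at Clcc1, a chloride channel gene (chr3:108653828-108654281, 6.59). The next were at the ribosomal protein gene Rpl11 (chr4:136052831-136053863, 6.06) and over the neighbours Ppp2r3c and Prorp (chr12:55302303-55303743, 5.89). At the Pank2 site H3K27ac covered 98.6% and 95.9% of the bases, H3K4me3 99.0% and 94.5%, EGR1 72.7% and 85.1%, and H3K27me3 0% in both libraries. Excitatory H3K4me1 reached 11.1% and 54.2% of this site, so the absence of H3K4me1 there is a statement on the inhibitory libraries only.

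Of the 5 H3K4me1-alone sites with the most bases covered in both libraries, only that at Adcyap1 was at a gene end. They lay at Adcyap1, which encodes the neuropeptide PACAP (chr17:93199510-93204118), in Slain1, a microtubule regulator gene (chr14:103652256-103656882), and in Robo2, an axon guidance receptor gene (chr16:74372286-74376198). The others lay in Asic2, an acid-sensing channel gene (chr11:81665823-81670374), and 151 kb from Twistnb, a gene of an RNA polymerase I subunit (chr12:33590152-33593919). At the Adcyap1 site H3K4me1 covered 100% and 89.8% of the bases and H3K27me3 64.0% and 73.6%. The Slain1 site differed, with H3K27me3 at 10.7% and 0%.

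At the top of the sites with both marks was an intergenic region of chromosome 2 (chr2:98666243-98667514, −log10 q of 60.5), and a neighbouring region was also among the top 5 (chr2:98662062-98662963, 9.46). Both are over 1 Mb from the nearest gene, Lrrc4c. Peaks of every antibody covered them, with 71.1% as the lowest value in any inhibitory library or in the excitatory H3K4me1 and H3K27ac libraries, so they are not particular to the marks compared. The second in rank was a site at Setmar, a SET-domain methyltransferase gene (chr6:108063281-108069097, 9.47), and another lay at the metal transporter gene Slc11a1 (chr1:74386077-74388247, 9.34). At the Setmar site H3K4me1 covered 62.0% and 86.0% of the bases, H3K27ac 24.2% in each library, and H3K27me3 none.

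The antibodies that were not used to define the classes also separated them. H3K4me3 covered 67.2% and 69.3% of the bases of H3K27ac-alone sites in its 2 libraries, 24.7% and 26.7% of sites with both marks, 6.21% and 6.08% of H3K4me1-alone sites, and 14.8% and 15.4% of all regions. H3K27me3 had the opposite order, with 2.99% and 2.71% at H3K27ac-alone sites, 7.52% and 6.41% at sites with both marks 24.3% and 22.9% at H3K4me1-alone sites, and 13.1% and 11.8% over all regions. EGR1 covered 36.2% and 42.8% of the bases of H3K27ac-alone sites, 9.85% and 13.4% of sites with both marks 2.60% and 3.68% of H3K4me1-alone sites, and 6.21% and 8.29% of all regions. The values of the 2 libraries, in percent of bases over all positions, never overlapped between classes for any of these antibodies. In percent of bases, the difference between sites with both marks and H3K4me1-alone sites was 19.6 percentage points ± 1.55 (SD, n = 2) for H3K4me3. It was -16.7 ± 0.181 for H3K27me3 and 8.46 ± 1.72 for EGR1. With 2 libraries an exact sign-flip test reaches 0.5 at the lowest, and no p is given.

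**Figure D3:**
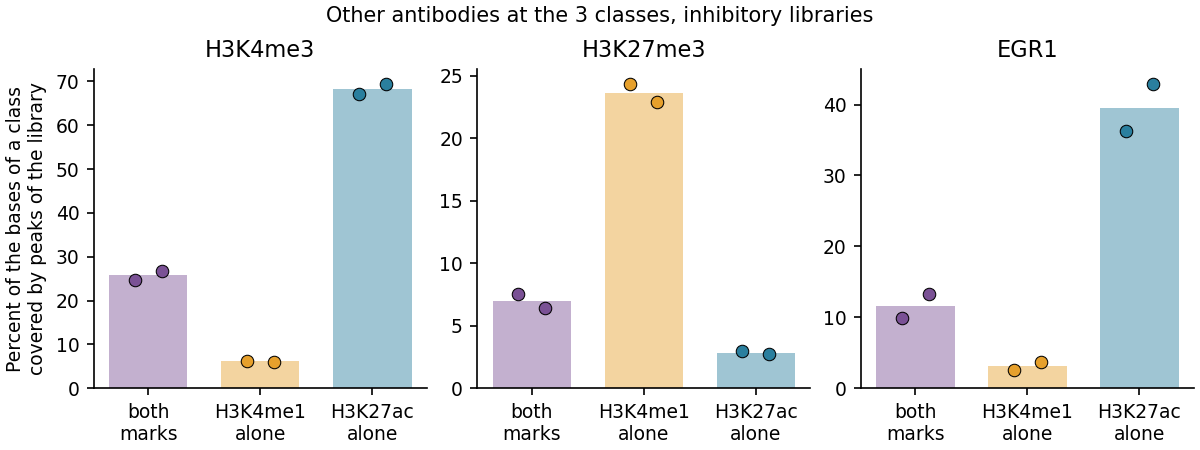
Percent of the bases of each class (y axis) covered by H3K4me3, H3K27me3 and EGR1 peaks of the inhibitory libraries, with a point per library and bars at their mean (n = 2). H3K27me3 is highest at H3K4me1-alone sites, with 24.3% and 22.9%, and H3K4me3 at H3K27ac-alone sites, with 67.2% and 69.3%.

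H3K27me3 was higher at H3K4me1-alone sites than at sites with both marks in every position and at matched width. At gene ends H3K27me3 covered 27.2% ± 1.06 (SD, n = 2) of H3K4me1-alone sites, 7.79% of sites with both marks, 1.69% of H3K27ac-alone sites and 12.2% of all regions. In gene bodies the means were 15.4%, 4.82%, 2.59% and 8.09% in the same order, and between genes 36.4%, 11.6%, 11.7% and 22.2%. Among sites of 1000 to 2000 bases they were 24.8%, 9.69%, 1.66% and 15.3%. For H3K4me3 the 3 classes differed most at gene ends, with 16.8% for H3K4me1 alone, 42.1% for both marks and 89.1% for H3K27ac alone, while between genes the values were 3.99%, 22.9% and 26.0%. In percent of bases, the H3K4me3 excess of H3K27ac-alone over both-mark sites was thus largest at gene ends. By share of sites with a peak it was 93.9% against 90.5% there. In gene bodies (32.5% against 66.2%) and between genes (28.6% against 71.0%) H3K27ac-alone sites had H3K4me3 less often. The same held for EGR1. At gene ends 83.1% of H3K27ac-alone sites had an EGR1 peak, against 74.9% of sites with both marks. In gene bodies (21.6% against 37.4%) and between genes (22.9% against 49.5%) H3K27ac-alone sites had EGR1 less often. In percent of bases the EGR1 means were higher at H3K27ac-alone sites in each position.

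Counted by site, H3K27me3 peaks of both libraries were present at 10070 of the H3K4me1-alone sites (29.98%), at 5967 of the sites with both marks (13.3%) at 141 of the H3K27ac-alone sites (2.63%) and at 13.9% of all regions. H3K4me1-alone sites with H3K27me3 in both libraries were intergenic in 49.1%, against 17.5% of those with H3K27me3 in neither library, and over all regions these shares were 50.1% and 24.2%. EGR1 peaks of both libraries lay at 49.6% of the H3K27ac-alone sites, 37.8% of those with both marks, 6.34% of those with H3K4me1 alone and 10.3% of all regions. The class was partly shared with the nuclei labelled excitatory. Their H3K27ac peaks were present in both libraries at 3911 of the inhibitory H3K4me1-alone sites (11.6%) and at 47.6% of the sites with both marks, and their H3K4me1 peaks at 49.9% and 80.3%. Over all regions these shares were 14.3% for H3K27ac and 34.1% for H3K4me1.

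Promoter sequence differed between the classes. RefSeq promoter windows, from 250 bases before a start to shortly after it, were matched for 17251 of the 21631 genes (79.8%), in 21020 windows. A promoter was assigned to the site that overlapped it, which gave 6669 promoters with both marks (31.7%), 2226 with H3K27ac alone (10.6%) and 1114 with H3K4me1 alone (5.30%), while 7627 (36.3%) overlapped no region. The median ratio of observed to expected CpG was 0.85 for H3K27ac alone (quartiles 0.71 and 0.97), 0.74 for both marks (0.55 and 0.89), 0.57 for H3K4me1 alone (0.36 and 0.77), 0.20 where no region overlapped and 0.57 over all promoters. H3K4me1-alone promoters differed with H3K27me3. The 904 with H3K27me3 in both libraries had a median of 0.60, and the 147 with H3K27me3 in neither had 0.29.

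The ETS motif CCGGAAGT, the site of a family of factors common at promoters of broadly expressed genes, was searched on both strands. It was present in 10.4% of the H3K27ac-alone promoters (95% exact binomial interval 9.14 to 11.7), in 8.29% of those with both marks (7.64 to 8.98), in 0.808% of those with H3K4me1 alone (9 of 1114, 0.370 to 1.53) and in 5.20% of all promoters. Promoters that overlapped no region had it in 1.17%, near the H3K4me1-alone value. The palindromic motif of the factor NRF1 was in 3.41%, 1.96% and 0.359% of the 3 classes in the same order, in 1.34% of all and in 0.380% of those in no region. TATAAA went the other way, with 5.30%, 6.72% and 11.4%, against 12.7% of all promoters. GGGCGG, the box bound by SP factors, was in 70.6%, 64.2% and 56.3%, against 46.6% of all. CCAAT was in 37.9%, 38.3% and 32.2%, against 38.5% of all. The EGR1 core, GCGTGGGCG or GCGGGGGCG, was in 7.82%, 6.28% and 6.28%, against 4.68% of all. The motifs depend on base composition, which differed between the classes, and a match describes the letters only.

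**Figure D4:**
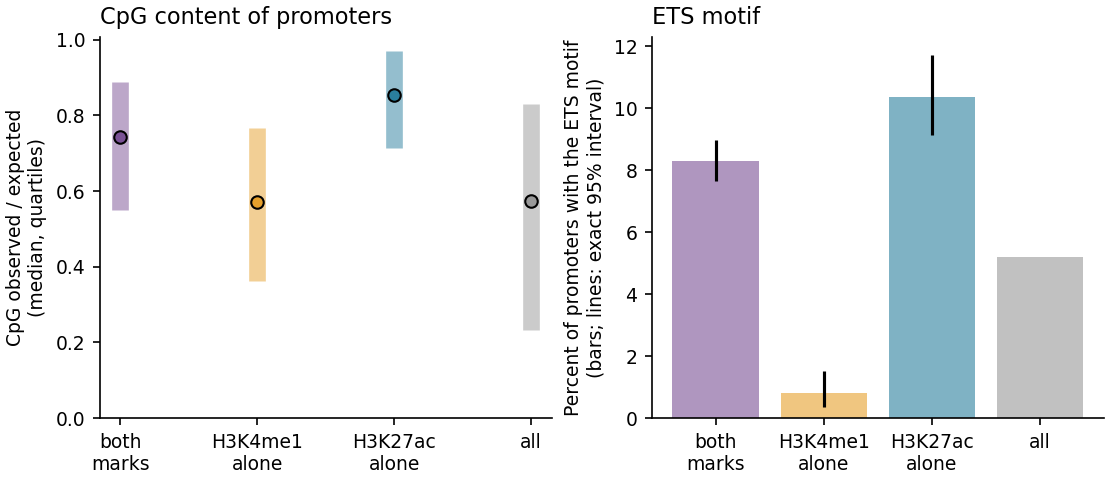
Left, ratio of observed to expected CpG of the promoters of each class and of all promoters, with the median as a point and the quartiles as a bar. Right, percent of promoters with the ETS motif, with exact 95% intervals as lines for the 3 classes. Promoters with H3K27ac alone have the highest median CpG ratio, 0.85, and H3K4me1-alone promoters the fewest ETS motifs, 0.808%.

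To ask which genes carried more of either mark, the percent of each gene's window (body plus 5 kb on each side) under peaks was compared between the marks by limma. Of the 16808 genes tested 416 passed an adjusted p of 0.05 (2.48%), 271 with more H3K4me1 (1.61%) and 145 with more H3K27ac (0.863%), and 4134 had an unadjusted p under 0.05 (24.6%). Quantile normalization sets the 4 libraries to the same distribution of coverage, so a difference is relative to the other genes. Without it 9512 genes were higher in H3K4me1 and 76 in H3K27ac, and the median difference over all genes moved from -0.118 to 7.16 points. With the 2 kb around both ends of a gene as the window, 1330 of 15319 genes had more H3K4me1 (8.68%) and 1054 more H3K27ac (6.88%).

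Several settings ended these calls. By limma 0 genes passed with stricter peaks (5000 at an unadjusted p under 0.05), 0 among genes covered in every library (3380), 0 with the replicate number as a block (3661) and 0 when any library was left out (2638 to 3097). Leaving out a library leaves 1 mark with a single library, which is assumed to vary like those of the other mark, and the smallest adjusted p was then 0.121 to 0.195. Of the 416 genes 399 were tested without either H3K27ac library and 187 without either H3K4me1 library, and those tested kept their sign. This was nearly fixed in advance and is no support. In every called gene both libraries of 1 mark lay above both of the other on the normalized scale. Of the 271 genes with more H3K4me1, 229 had no H3K27ac peak in either library and so passed the filter, coverage in at least 2 libraries, only through H3K4me1. Of the 145 with more H3K27ac 17 had no H3K4me1 peak. With no filter 114 genes had more H3K4me1 and 18 more H3K27ac. The same filter was used with the gene-end window, where the calls that passed it only through 1 mark were not counted for any list. List medians cover only tested genes. A gene without H3K27ac peaks was tested only if both H3K4me1 libraries covered it. Medians of lists with many such genes therefore lean towards H3K4me1 in either window. The calls and medians by gene and by list are given below as descriptions of these 4 libraries.

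In the 10 genes named for the largest excess of H3K4me1, H3K27ac covered at most 6.78% of any window. Nkx3-2, a homeobox gene of skeletal and gut development, was covered by H3K4me1 to 38.3% and 36.8% and by H3K27ac to 0% and 0%. H3K27me3 covered 30.4% and 33.2% of it. Its difference was 28.8 percentage points ± 1.92 (SE) on the quantile-normalized scale (limma, adjusted p = 0.0433). It passed the filter only through H3K4me1, and without the filter its adjusted p was 0.0431. Msx1, a homeobox gene of craniofacial development, followed with 35.6% and 37.6% of H3K4me1 and 0% and 2.07% of H3K27ac, and Osr1, a zinc-finger gene of the kidney and heart, with 32.0% and 38.7% and with 1.71% and 0%. Neurog3 and Hand2, basic helix-loop-helix genes of the endocrine pancreas and of the heart and limb, had differences of 24.9 and 22.3 points. Sp5, a zinc-finger gene, had 23.5, Sox14, a transcription factor gene of diencephalic GABAergic neurons, 23.4, Pou3f2, a POU-domain gene, 22.0, Hlx, a homeobox gene, 21.7, and Yjefn3 24.98. Both H3K4me1 libraries lay above both H3K27ac libraries in each, as the choice of these genes required. Without the filter Sp5 also passed (adjusted p = 0.0484), and the other 8 had adjusted p of 0.0649 to 0.12.

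The genes with the largest excess of H3K27ac were of mixed function. Nop10, a component of the ribonucleoprotein that modifies ribosomal RNA, was covered by H3K27ac to 19.3% and 25.5% and by H3K4me1 to 12.7% and 11.8%, a difference of -21.9 points ± 2.82 (SE; limma, adjusted p = 0.0452). Crlf2, which encodes the receptor of the cytokine TSLP, had H3K27ac at 13.0% and 12.5% and H3K4me1 at 0% and 0%, a difference of -19.1, and passed the filter only through H3K27ac. Nrbp2, a pseudokinase gene, had -20.2, Uncx, a homeobox gene, -19.4, the histone gene H3c13 -19.8 and Pigbos1, which encodes a mitochondrial microprotein, -19.8. Ubl4a and Slc10a3 had -18.6 and -17.6, which turned to 1.83 and 1.75 with stricter peaks. They are neighbours on the X chromosome whose windows share peaks, so they are not independent. H3c13 lies among near-identical histone genes, so reads could have been placed among the copies. Prss33, a serine protease gene, and Lpcat2b, an acyltransferase gene, had -17.8 and -17.7. Nop10 went the other way when only the 2 kb around gene ends were used, with a difference of 7.05. Without the filter none of the 10 passed, with adjusted p of 0.0649 to 0.147.

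The called genes differed from the rest in length and in H3K27me3, which the fit did not use. The 271 genes with more H3K4me1 had a median length of 6.20 kb, against 23.1 kb for all genes tested, and a median H3K27me3 coverage of 29.5% and 28.8%, against 5.38% and 3.41%. The 145 genes with more H3K27ac had a median length of 9.98 kb and a median H3K27me3 coverage of 9.28% and 8.21%. A fixed flank weighs more in a short gene, and what length adds to these calls was not tested.

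Many genes of inhibitory neurons had H3K4me1 without H3K27ac. Of 36 listed genes 33 were tested and 8 had more H3K4me1, read against the background of 1.61%, and none had more H3K27ac. All 8 lacked H3K27ac peaks in both libraries and so passed the filter only through H3K4me1, and none of the list was called without the filter, with stricter peaks or among genes covered in every library. The median difference over the genes tested was 2.31 points, against -0.118 over all genes tested. The filter favours a positive median in a list with many genes without H3K27ac, so it is no support. The 8 called with the filter include Dlx1, Dlx5, Dlx6, Lhx6, Nkx2-1 and Sp8, transcription factor genes of interneuron development, and Tac1, a neuropeptide gene. Dlx5 was covered by H3K4me1 to 24.8% and 29.8%, by H3K27ac to 0% and 0% and by H3K27me3 to 41.0% and 29.0%. Dlx5 and Dlx6 are neighbours and share part of their windows. Lhx6 had H3K4me1 at 16.0% and 10.1% and H3K27ac at 0% in both libraries. Gad1, Gad2 and Slc32a1 did not pass, with differences of 2.3, 2.2 and 3.52 points and adjusted p of 0.397, 0.221 and 0.243. With the gene-end window 17 of 30 inhibitory genes tested had more H3K4me1, against 8.68% of all genes, with a median of 16.0 points. How many of the 17 passed the filter only through H3K4me1 was not counted.

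An H3K4me1-alone site lay at an end of 20 of the 36 genes (55.6%), against 22.8% of all genes, and a site with both marks lay in the window of 12 (33.3%), against 59.7%. Such end sites were common in other lists too, with 65.7% of brainstem, 46.7% of housekeeping, 44% of activity-regulated and 40% of striatal genes. Only the chromatin enzyme (22.6%), voltage-gated channel (20.7%) and GABA receptor and transporter (16.7%) lists lay below the share of all genes. At 19 of the 36 (52.8%) an H3K4me1-alone end site also had H3K27me3 in both libraries, against 7.29% of all genes. This was not particular to the inhibitory list. The share was 35% for striatal, 33.3% for oligodendrocyte, 26.7% for microglia and for vascular, 25% for astrocyte and 16.1% for excitatory forebrain genes. Only the chromatin enzyme and housekeeping lists lay below the share of all genes, with 3.23% and 0%. Gad1, Gad2 and Slc32a1 were among the 19. The Gad1 site (chr2:70560931-70564052) was covered by H3K4me1 to 53.0% and 80.5%, by H3K27ac to 0% and 0% and by H3K27me3 to 21.5% and 40.6%. The Gad2 site (chr2:22620956-22624146) was covered to 89.6% and 95.4%, 0% and 0%, and 94.8% and 56.5% in the same order, and to 49.7% and 63.8% by H3K4me3. Both sites hold the start of the gene and the promoters printed above. The site at Slc32a1 (chr2:158615268-158616787) lay at its far end, with H3K4me1 at 39.5% and 100%, H3K27ac at 0% and 0% and H3K27me3 at 70.5% and 89.7%. The libraries labelled excitatory had H3K27ac over 47.1% and 35.5% of it. Gad2 also had a site with both marks in its body (chr2:22669728-22671743).

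The list of thalamic, hypothalamic and brainstem genes had a median difference of 8.43 points over the genes tested, with the same limit from the filter. Of 32 tested 11 had more H3K4me1 and none more H3K27ac, and 9 of the 11 had no H3K27ac peak in either library. Without the filter 4 of the list passed, Foxb1, Sim1, Tal1 and Tcf7l2. The 11 called with the filter include Lhx2, Nkx2-2, Phox2a, Pou4f1, Gata2, Gata3, Tal1, Sox14, Six6 and Foxa1, which are transcription factor genes. Gata2 was covered by H3K4me1 to 28.1% and 25.5% and by H3K27ac to 0% and 3.82%, and Gata3 to 14.8% and 13.2% and to 0% and 0%. At 18 of the 35 listed genes (51.4%) an H3K4me1-alone end site had H3K27me3 in both libraries. With the gene-end window 18 of 32 tested had more H3K4me1 and 1 more H3K27ac, against 8.68% and 6.88% of all, with a median of 15.3 points. How many of these 18 passed the filter only through H3K4me1 was not counted.

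HOX genes, homeobox factors that set position along the body axis, had a median of 6.604 points over the genes tested. Most of them could be tested only through H3K4me1, so a positive median was nearly fixed in advance. Of 24 tested 6 had more H3K4me1, namely Hoxc5, Hoxc9, Hoxc10, Hoxd8, Hoxd9 and Hoxd10. All 6 passed the filter only through H3K4me1, and without it Hoxb5 and Hoxc10 passed. None of the 39 had a site with both marks, and 37 were at 0% in both H3K27ac libraries. Neighbouring HOX windows overlap, so members share peaks. Hoxc9 had H3K4me1 at 23.5% and 16.9% and H3K27me3 at 33.0% and 26.5%. With the gene-end window 7 of 19 HOX genes tested had more H3K4me1, against 8.68% of all. As 37 of the 39 lacked H3K27ac, nearly all of the 19 could pass the filter only through H3K4me1, so this count is no support.

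**Figure D5:**
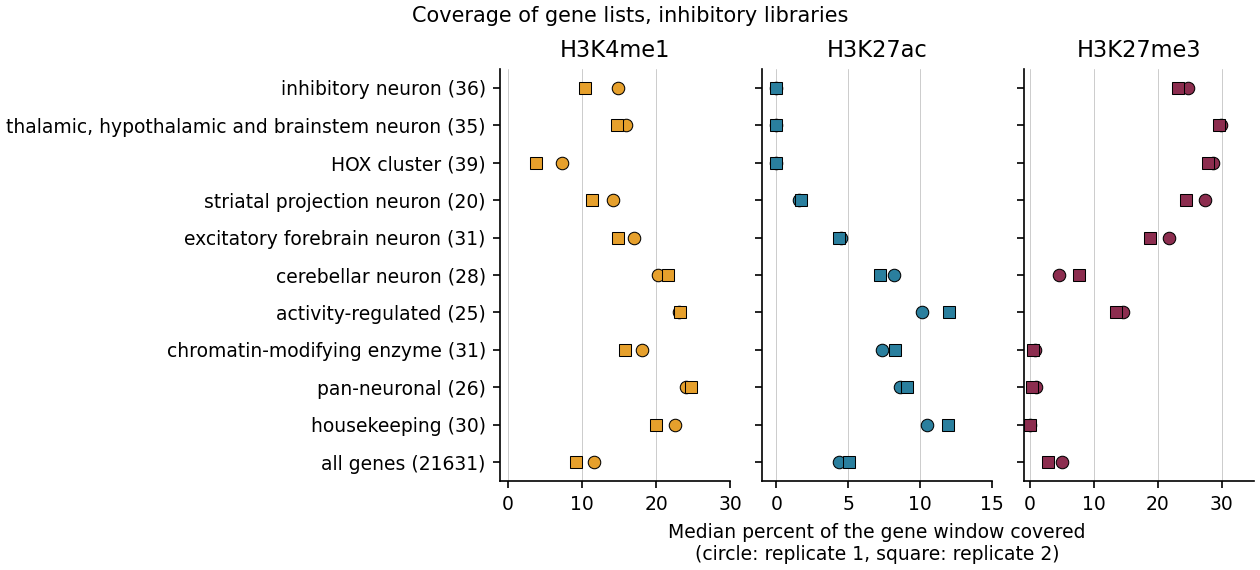
Median percent of the gene window covered by H3K4me1, H3K27ac and H3K27me3 peaks (x axes) for 10 gene lists and all genes, with a circle for replicate 1 and a square for replicate 2. The inhibitory, brainstem and HOX lists sit at 0% H3K27ac in both libraries with high H3K27me3. Low H3K27ac with high H3K27me3 was also found for the oligodendrocyte, vascular and microglia lists, as given in the text. Housekeeping genes have 10.5% and 11.9% H3K27ac and 0% H3K27me3.

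The raw coverage of the lists, in the plot of list medians, shows the same 3 lists at 0% H3K27ac. Low H3K27ac with high H3K27me3 was not particular to these lists. The oligodendrocyte list had medians of 0.221% and 0.415% H3K27ac, and 24.8% and 22.0% H3K27me3. The vascular list had 0.167% and 0.244%, and 16.1% and 11.3%, in the same order. The microglia list had 1.93% and 0.283%, and 21.8% and 19.7%. All genes had 4.33% and 5.04%, and 4.95% and 2.84%. The inhibitory list had a median of 14.8% and 10.4% H3K4me1 and 24.7% and 23.2% H3K27me3, and the thalamic, hypothalamic and brainstem list 16.0% and 14.8%, and 29.8% and 29.6%. Lists of other forebrain, glial and vascular cells had 0 to 2 calls among 13 to 31 genes tested, against the background of 1.61% with more H3K4me1. In lists this short a single call already lies above that share. Emx2 and Fezf2, forebrain transcription factor genes, had more H3K4me1 among 31 excitatory forebrain genes, with a median of 2.31 points, and 24 of the 31 had a site with both marks. Slc17a7 was covered by H3K4me1 to 22.3% and 22.9% and by H3K27ac to 14.0% and 14.4%, a difference of -4.20 points with an adjusted p of 0.257. Penk and Tac1, neuropeptide genes, had more H3K4me1 among 18 striatal genes, with a median of 4.27. Olig1 and Pdgfra, of oligodendrocyte precursors, did so among 15 oligodendrocyte genes (median -0.343), and Kcnj8, a potassium channel gene of pericytes, among 13 vascular genes (median 0.0964). Among these calls Emx2, Penk, Tac1, Olig1, Pdgfra and Kcnj8 passed the filter only through H3K4me1, and none of these lists' called genes passed without it. No astrocyte or microglia gene passed, with medians of 2.47 and -0.210. With the gene-end window 5 of 15 astrocyte genes and 1 of 9 microglia genes had more H3K4me1, against 8.68% of all, with medians of 8.27 and 3.56. So did 8 of 31 excitatory forebrain, 6 of 17 striatal, 4 of 10 oligodendrocyte and 2 of 11 vascular genes. In that window 1 excitatory forebrain gene had more H3K27ac.

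Of the 28 cerebellar genes listed 22 had a site with both marks, against 59.7% of all genes, 4 had H3K4me1-alone sites only and 2 had no classified site. By limma 2 of 27 tested had more H3K4me1, Atoh1, a basic helix-loop-helix gene of granule cell precursors, and Pax2, a paired-box gene of interneuron precursors. Pax2 had no H3K27ac peak in either library and passed also without the filter. With the gene-end window 4 of 26 cerebellar genes tested had more H3K4me1, against 8.68% of all. En2, a homeobox gene of the midbrain and cerebellum, was covered by H3K4me1 to 43.6% and 44.3%, by H3K27ac to 17.8% and 25.2% and by H3K27me3 to 0% in each library. Neurod1, a basic helix-loop-helix gene of granule cells and forebrain neurons, had 28.2% and 26.4%, 19.1% and 6.79%, and 0% and 0%.

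Most genes used by all neurons or all cells had a site with both marks. This held for 24 of 26 pan-neuronal genes, 30 of 31 genes of chromatin-modifying enzymes and 25 of 30 housekeeping genes, against 59.7% of all genes, and no member of these lists passed the test in either direction with the whole window. With the gene-end window 5 of 26 pan-neuronal genes had more H3K4me1 and 2 more H3K27ac, 3 of 29 chromatin enzyme genes had more H3K27ac, and 2 of 30 housekeeping genes had more H3K4me1, against 8.68% and 6.88% of all. Snap25, a gene of the synaptic vesicle fusion complex, had H3K4me1 at 26.6% and 28.0% and H3K27ac at 7.05% and 6.65%. H3K27ac-alone sites were found at an end of 15 of the 31 chromatin enzyme genes (48.4%) and 12 of the 30 housekeeping genes (40%), against 14.5% of all genes. This was not particular to genes used by all cells. The share was 37.9% for voltage-gated channel genes, 32% for activity-regulated genes and 23.1% for pan-neuronal genes. A site with both marks was also present at 19 of 25 activity-regulated genes, 20 of 24 glutamate receptor genes, 25 of 29 voltage-gated channel genes and 11 of 18 genes of GABA receptors and transporters, the last near the share of all genes. None of them passed with the whole window. With the gene-end window 7 of 23 glutamate receptor genes had more H3K4me1, as did 3 of 24 activity-regulated, 2 of 28 channel and 1 of 15 GABA genes, while 1 activity-regulated, 5 channel and 3 GABA genes had more H3K27ac. Egr2, an activity-regulated zinc-finger gene, had a difference of 19.3 points with an adjusted p of 0.0533.

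By gene, 12907 of the 21631 protein-coding genes had a site with both marks in their window (59.7%), 1931 had H3K4me1-alone sites only (8.93%), 248 had H3K27ac-alone sites only (1.15%), 517 had both kinds of single-mark site (2.39%) and 6028 had no classified site (27.9%). A site with both marks lay at an end of 10001 genes (46.2%), an H3K4me1-alone site at an end of 4936 (22.8%) and an H3K27ac-alone site at an end of 3133 (14.5%). An H3K4me1-alone site without any H3K27ac peak of either library in the window was found at 1004 genes (4.64%).

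To see where the libraries labelled inhibitory differ from those labelled excitatory, the difference between the marks was compared between the types with limma's interaction term. It called 0 of 18355 genes, with 1633 at an unadjusted p under 0.05 (8.90%) and a smallest adjusted p of 0.105. Without excitatory H3K27ac replicate 1 it called 67 genes and without replicate 2 it called 2. Sp8, a zinc-finger gene of interneuron development, was among the 5 of lowest p in its direction. It had H3K4me1 at 22.1% and 21.2% in the libraries labelled inhibitory and at 3.98% and 4.35% in those labelled excitatory, and H3K27ac at 0% in all 4 H3K27ac libraries. The same division of the excitatory libraries gave 46530 sites with both marks, 49533 with H3K4me1 alone and 6820 with H3K27ac alone. At gene ends lay 19.3%, 11.3% and 37.9% of them, the same order as in the inhibitory libraries.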

How the data were processed

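CUT&RUN libraries of sorted whole-brain nuclei were analysed, 2 per group, grouped and numbered by their titles. The authors deposited peak lists on mm10 that give each peak a fold enrichment (a ratio), a −log10 p-value and a −log10 q-value. The deposited integer score was not used. Per the submitters' processing notes, the tools included MACS2 2.2.5 and Bowtie2 2.3.5, with cutadapt 1.18, Picard 2.25.0, Trim Galore 0.5.0 and SAMtools 1.12. H3K4me1 and H3K27me3 lists are broad peaks and the others narrow, per the file formats, and each list belongs to a single library. There are no read counts, so depth is unknown and the lists' thresholds set what counts as a peak.

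Peaks on chromosomes 1 to 19 and X were merged, classed and placed on the 21631 protein-coding genes of RefSeq GRCm38.p6. The gene table gives no strand, so gene ends stand for promoters except where the RefSeq promoter windows, which have strand, were used. The percent of each gene's body plus 5 kb on both sides under peaks was quantile-normalized across libraries, and limma 3.58.1 (R 4.3.3, eBayes with trend) was run, for genes covered in at least 2 libraries, with two-sided Benjamini-Hochberg adjusted p over all genes and a threshold of 0.05. The interaction was fitted on 8 libraries. Intervals and merging ran in Python 3.11.15 with numpy 2.4.6, pandas 2.3.3 and SciPy 1.17.1, figures were drawn with matplotlib 3.10.9, and the overlap code was tested on simulated intervals.

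The members and gene lists were chosen with earlier results of these data known. Named genes are the 10 largest differences per direction among those past the threshold whose libraries do not overlap, up to 3 members of each list, and Gad1, Gad2, Slc32a1, Slc17a7 and Slc17a6. Named sites are the 5 strongest of each class and the site nearest to Gad1, Gad2 and Slc32a1. List members that passed the test, and genes given as examples of a list, were added after their values were seen, and a few named items are not reported here. The lists are inhibitory neuron, excitatory forebrain neuron, striatal, cerebellar, thalamic, hypothalamic and brainstem neuron, pan-neuronal, astrocyte, oligodendrocyte, microglia, vascular, activity-regulated, glutamate receptor, GABA receptor and transporter, voltage-gated channel, HOX, chromatin-modifying enzyme and housekeeping genes. Alternatives were stricter peaks, an equal number of strongest peaks per library, segments covered in both libraries, other gene windows and filters, the log2 of percent plus 1, no quantile normalization, a replicate block, and leaving out each library.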

Additional observations from a re-analysis of the deposited data

How the results depend on the processing

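The classes were recomputed with stricter peaks (q below 0.05 for H3K27ac and −log10 p of at least 2 for H3K4me1), with the 109536 strongest peaks of each library, with segments covered in both libraries of a mark, with at least 200 bases covered, which changed nothing, and without each library. Absence of a mark is limited by unknown depth, and the cause of the changes was not tested. Stricter peaks gave 11334 sites with both marks and 13908 with H3K4me1 alone. Equal peak numbers gave 18074 with H3K4me1 alone and 8266 with H3K27ac alone, and segments gave 9793 with H3K27ac alone. Without a library H3K4me1-alone sites numbered 44110 to 129571 (66283 to 129571 without an H3K4me1 library) and H3K27ac-alone sites 8398 to 31497.

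The share at gene ends was 17.3%, 17.4% and 20.4% for both marks with stricter peaks, segments and equal numbers, 12.9%, 13.9% and 15.5% for H3K4me1 alone, and 69.5%, 58.7% and 49.7% for H3K27ac alone. Without a library it was 19.4% to 22.0% (19.4% to 21.5% for those that moved), 9.13% to 13.8% and 20.8% to 50.5%. The class difference of both marks minus H3K4me1 alone was 11.6 points for EGR1 with segments and 6.46 to 11.9 without a library. For H3K27me3 it was -16.9 with stricter peaks, -14.3 with segments, -20.2 with equal numbers and -13.3 to -12.2 without a library. For H3K4me3 it was 24.9 with segments, 18 with equal numbers and 14.98 to 26.1 without a library. Promoter values under these settings were added after seeing the data. The median CpG ratio for both marks was 0.72 with stricter peaks, 0.70 with segments, 0.73 with equal numbers and 0.72 to 0.75 without a library. For H3K4me1 alone it was 0.51, then 0.59 with equal numbers and 0.54 to 0.56 without a library, and for H3K27ac alone 0.81, then 0.85 with equal numbers and 0.84 to 0.85 without a library. The ETS share of both marks was 7.4% with stricter peaks.

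Genes with more H3K4me1 numbered 0 with stricter peaks, 155 with equal numbers, 114 without the filter, 0 among genes covered in every library, 1330 at gene ends, 9512 without quantile normalization and 0 when each library was left out in turn. Genes with more H3K27ac numbered 0, 92, 18, 0, 1054, 76 and 0 in the same order. At an unadjusted p under 0.05 limma had 5000 genes with stricter peaks and 3380 among genes covered in every library. The labels do not say whether same-numbered libraries are paired. Their deviations had a correlation over genes of r = -0.0633, which cannot settle it, and the libraries were treated as unpaired. With the number as a replicate block limma called 0 genes higher in H3K4me1 and 0 in H3K27ac, with 3661 at an unadjusted p under 0.05. The interaction called 13 genes with equal numbers, 1 on the log2 scale, 44 without the filter and 0 to 67 without a library, or 2 to 67 without an excitatory H3K27ac library.

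Of the named genes, these changed sign. At gene ends they were Nop10 (7.05), Gabrb2 (-1.01), Gabbr2 (-5.67), Cacna1e (-19.9) and Tet2 (-22.9). With stricter peaks they were Ubl4a (1.83), Slc10a3 (1.75), Eomes (4.76), Tagln (6.34), Grin2c (-0.873), Grm4 (-1.98), Slc17a7 (3.4) and, in the interaction, Nsmce3 (7.41). Without quantile normalization they were Eomes (6.63), Vtn (11.4), Tagln (8.48), Fos (0.183), Gabbr1 (1.65), Rps18 (3.01), Rpl4 (2.49) and Slc17a7 (8.4). Aif1 had -0.0642 on the log2 scale, -0.691 with equal numbers and -2.94 to 12.5 without an H3K4me1 library.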

Other observations

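Of the H3K4me1 sites present in both libraries, a larger share lacked H3K27ac on the X chromosome than on the autosomes. On X 1199 sites had H3K4me1 alone and 865 had both marks, so 58.1% lacked H3K27ac (95% exact binomial interval 55.9 to 60.2, counting error only), against 42.4% on the autosomes together (42.0 to 42.7). Single autosomes ranged from 39.5% on chromosome 7 to 47.5% on chromosome 14. In the libraries labelled excitatory the share was 71.4% on X and 51.2% on the autosomes. X held 2.29% and 2.73% of the length covered by H3K4me1 and 2.08% and 2.0% of that covered by H3K27ac. The sex of the mice was not used here, and the sites are not replicates of a condition, so these shares are given without a test.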
